A study of Mus musculus with 108 samples.

Results

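The genes described here are the ligands Lif and Cntf, the receptor genes Lifr, Osmr, Il6st and Cntfr, the transcription factor Stat3, its inhibitor Socs3 and its target Cebpd. They were taken by name from arrays of the retina and of the optic nerve head (ONH), 1 probe set per gene, namely the probe set with the highest mean in the tissue among those assigned to that gene alone. Of the 9 genes, 8 could be measured, out of 18194 genes with such a probe set. The only probe set of Cntf is assigned to 3 genes at the same time, so Cntf has no value here. The genes were chosen by name with earlier results of these arrays known, and Lif was selected on its high level in the ONH with moderate glaucoma. The values of Lif in moderate ONH are therefore given as a description with no p-value, and the p-values of the other genes are not independent of that choice.

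All mice were labelled female. DBA/2J mice develop an inherited pigmentary glaucoma, and D2-Gpnmb+ mice carry a functional Gpnmb gene on the same background, stay free of glaucoma and served as controls. Both were 10.5 months old, and a further group of DBA/2J mice, called preglaucoma, was 4.5 months old and had its ONH measured only. The DBA/2J eyes of the older age were graded as no or early glaucoma (in sets 1 and 2, which the labels do not explain), moderate or severe. No mouse was treated. The ONH groups held 10 control arrays, 10 preglaucoma arrays, 10 and 11 arrays of the no or early sets, 9 moderate and 10 severe arrays, from 50 mice. The retina groups held 10 control arrays, 10 and 10 arrays of the no or early sets, 8 moderate and 10 severe arrays. Some mice gave both eyes to a group: the 10 control arrays came from 7 mice in each tissue, the 10 preglaucoma arrays from 7, the 10 severe arrays from 9 in each tissue, and set 2 of no or early from 10 mice in the ONH and 9 in the retina. The n given below counts eyes. The ONH was a punch of the whole tissue that by its protocol includes pieces of choroid, sclera and central retina, and in such bulk samples fewer cells of a type and less RNA per cell cannot be told apart.

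LIF, ciliary neurotrophic factor and oncostatin M belong to the interleukin 6 family of cytokines, whose receptors all contain the shared subunit gp130, the product of Il6st. LIF binds a complex of LIFR and gp130, ciliary neurotrophic factor needs CNTFR in addition, and in the mouse oncostatin M acts mainly through OSMR and gp130. Binding activates JAK kinases and then STAT3, which enters the nucleus and turns on genes such as Socs3 and Cebpd, and SOCS3 in turn blocks the receptor. In the injured retina this pathway is known from Müller glia and astrocytes that become reactive, and LIF is known as a factor that protects photoreceptors and other neurons.

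STAT3 dimers bind palindromic sites of the form TTCNNNGAA, and a search for this motif in the 250 bases before the annotated start of each gene (RefSeq, GRCm38.p6) shows where the pathway's own genes carry such letters. Both strands were searched, which give the same matches because the motif is its own reverse complement. Among the 32851 promoters of the table, 7.02% held the motif, and 5.85% held TTCNNNNGAA, the form with a wider spacer. Of the 8 genes with a promoter in the table (Lif, Lifr, Il6st, Osmr, Cntf, Cntfr, Stat3 and Socs3), Socs3 alone had a match. With all annotated starts these genes had 14 windows, and 1 match in 14 is 7.14%, close to the share of all promoters. The Socs3 window is shown beside that of Lif, the ligand of the pathway, with the match in capitals.
Socs3: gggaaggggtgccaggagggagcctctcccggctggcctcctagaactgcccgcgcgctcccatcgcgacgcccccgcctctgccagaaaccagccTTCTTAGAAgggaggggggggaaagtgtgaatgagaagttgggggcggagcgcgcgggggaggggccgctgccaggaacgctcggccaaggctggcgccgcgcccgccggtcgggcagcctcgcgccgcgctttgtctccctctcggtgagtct
Lif: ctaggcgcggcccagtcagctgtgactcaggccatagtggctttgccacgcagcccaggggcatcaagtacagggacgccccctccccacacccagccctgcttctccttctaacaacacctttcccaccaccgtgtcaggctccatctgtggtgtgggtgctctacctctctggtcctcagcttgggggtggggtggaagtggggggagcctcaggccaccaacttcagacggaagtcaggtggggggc
The Socs3 window lies at chr11:117969367-117969616 on the minus strand and the Lif window at chr11:4257318-4257567 on the plus strand, both read 5′ to 3′. The match in Socs3 runs from base -154 to base -146 relative to the start. A match of letters is a description and shows no binding, and Cebpd has no entry in the table.

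The arrays hold log2 signals, with array medians from 4.88 to 5.23 in the ONH and from 5.02 to 5.16 in the retina, so that a difference of 1 is a doubling of the signal. Gpnmb, the gene that differs by genotype, was at 8.35 to 9.80 in control ONH and at 5.75 to 7.92 in DBA/2J ONH, and at 7.29 to 7.88 in control retina and 4.89 to 6.47 in DBA/2J retina, with no overlap. The mouse that gave severe replicates 4 and 5 in both tissues had a low level of the female-specific transcript Xist (5.35 and 6.64 in the ONH, 3.85 and 2.89 in the retina). That level is at odds with its female label, and its sex was not settled. Severe ONH replicate 6 had a photoreceptor marker mean of 3.64, against 7.90 to 10.22 in the controls, and whether its punch held less retina was not tested. Severe ONH replicate 3, at 7.32, was the other severe punch below the controls. The markers of retinal ganglion cells fell in severe against control eyes, for 8 of 9 tested genes in the ONH and 9 of 9 in the retina. Of all genes tested, 13.5% fell in severe ONH, and 32% were called in either direction in severe retina. Differences were called at an adjusted p under 0.05 (limma over all genes tested, mouse as random block, Benjamini-Hochberg), ± gives the standard error for differences and the SD for levels, and eyes of the same group count as its samples.

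Lif, the ligand, showed the widest range of levels in the ONH. Control ONH had levels from 3.85 to 5.33 (median 4.84, mean 4.75 ± 0.48, n = 10), and preglaucoma ONH had 4.09 to 4.85 (median 4.39, mean 4.44 ± 0.25, n = 10). The 9 moderate ONH stood at 4.92, 6.23, 6.93, 7.15, 7.44, 7.5, 8.09, 8.13 and 8.42 (mean 7.20 ± 1.09). All but the lowest of them, replicate 5, were above every control. Severe ONH had 4.85 to 6.64 (median 5.58, mean 5.73 ± 0.69, n = 10), a range that overlapped the control range and the lower part of the moderate range. The no or early sets lay between, at 4.25 to 6.54 (median 5.09) in set 1 and 4.18 to 6.71 (median 5.48) in set 2, so that some eyes graded no or early had more Lif signal than any control and others as little.

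**Figure D1:**
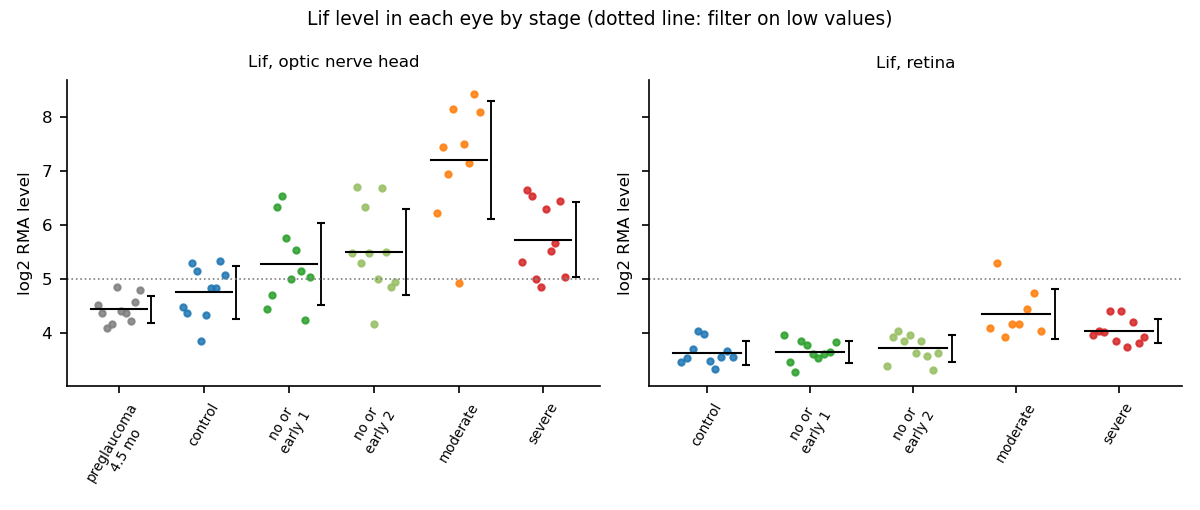
Level of Lif (log2 RMA signal, y axis) in each eye by stage (x axis) in the ONH (left) and the retina (right); points are eyes, black lines group means, bars the SD, and the dotted line at 5 the filter on low values. In the ONH 8 of the 9 moderate eyes lie above all controls, and in the retina 1 eye, moderate replicate 2, reaches the line.

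The fitted Lif difference was 2.44 ± 0.326 for moderate minus control ONH and 1.82 ± 0.28 for moderate minus no or early ONH, both part of what was known when the gene was chosen. No fold is given for Lif, since 4 of 10 control ONH reached the filter of 5. Severe ONH were lower than moderate ONH by a difference of -1.46 ± 0.321. Severe ONH still exceeded control ONH by 0.98 ± 0.319 (adjusted p = 0.0177), with 6 of 10 eyes above every control. With the mean of the microglia marker list as a covariate, a fit added after the data were seen, the severe difference was 0.36 (adjusted p = 0.493). No or early ONH exceeded preglaucoma ONH by 0.94 ± 0.275 (adjusted p = 0.0134), whereas the difference from the age-matched controls, 0.62 ± 0.275, did not pass the test (adjusted p = 0.242). In this order of means (preglaucoma, control, no or early, severe, moderate), the neighbours preglaucoma and control, control and no or early, and no or early and severe were not called apart (adjusted p = 0.626, 0.242 and 0.453). The unadjusted 95% interval of no or early minus control, 0.07 to 1.17, lay above 0, and those of the other two held 0.

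In the retina the Lif signal was low and only 1 of 48 arrays reached the filter of 5, so Lif was not tested there. Control retinas had 3.33 to 4.05 (median 3.56, n = 10), no or early sets 1 and 2 had 3.28 to 3.97 (median 3.63) and 3.32 to 4.04 (median 3.74), and severe retinas had 3.75 to 4.40 (median 4.00, n = 10). The 8 moderate retinas stood at 3.93, 4.04, 4.09, 4.16, 4.17, 4.44, 4.75 and 5.30. The top values were those of replicates 2 and 9, and 6 of the 8 lay above every control retina. The second Lif probe set had a mean of 3.03 in the ONH and 2.75 in the retina and reached the filter on no array, so the Lif values rest on 1 probe set.

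Besides Lif, 7 genes were measured. In moderate against control ONH 4 of these 7 rose and 2 fell, where 21.6% of the 12100 genes tested were called (9.68% higher and 11.9% lower). In severe against control ONH 4 rose and 1 fell (24.2% of all genes called, 10.7% higher and 13.5% lower). In moderate against control retina 6 of the 7 rose and none fell (15.5% of all genes called, 7.08% higher), and in severe against control retina 4 rose and none fell (32% of all genes called, 13.8% higher). Median differences of the 7 genes were 0.54 and 0.68 in moderate and severe ONH and 0.99 and 0.49 in moderate and severe retina, beside medians near 0 over all genes tested (0.01, 0.00, -0.01 and -0.02).

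**Figure D2:**
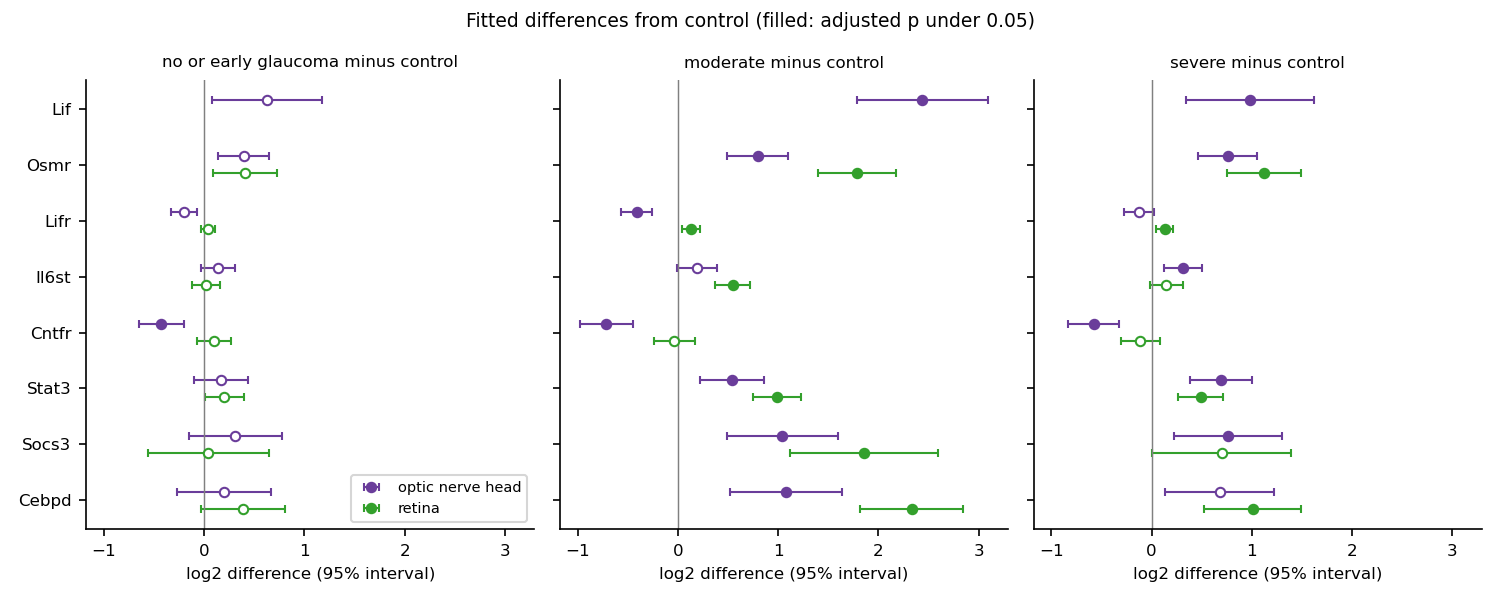
Fitted log2 difference from control (x axis, bars are 95% intervals) of each gene (y axis) in no or early, moderate and severe glaucoma, ONH in purple and retina in green; filled points passed an adjusted p of 0.05. Lif is plotted for the ONH only, and its moderate point is a description because the gene was selected on it; Cebpd, Socs3 and Osmr have the largest retina differences in moderate eyes (2.33, 1.86 and 1.79), and Lifr and Cntfr lie below 0 in moderate ONH.

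Osmr, the signalling subunit of the oncostatin M receptor, rose in both tissues. In the ONH, control levels were 8.36 to 9.57 (median 8.86, n = 10), moderate levels 9.0 to 10.16 (median 9.81, n = 9) and severe levels 9.0 to 10.08 (median 9.70, n = 10). The ranges overlapped, with 6 of 9 moderate and 7 of 10 severe ONH above every control. Moderate ONH exceeded control ONH by 0.79 ± 0.15 (1.73-fold, adjusted p = 8.99e-05) and severe ONH by 0.76 ± 0.147 (adjusted p = 6.21e-05). Both stages also exceeded no or early ONH, by 0.40 ± 0.129 (adjusted p = 0.0449) and 0.36 ± 0.125 (adjusted p = 0.041), but leaving out any 1 of 19 and of 16 mice ended these calls (highest adjusted p 0.133 and 0.11).

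Retinal Osmr separated the stages more widely. The 8 moderate retinas stood at 6.47, 6.66, 7.0, 7.26, 7.33, 7.56, 8.25 and 8.71, against 5.15 to 6.29 in control retinas (median 5.60, n = 10). Severe retinas had 6.35 to 7.03 (median 6.82, n = 10). Every moderate and every severe retina was above every control retina, a separation that 1.38% and 7.29% of all genes tested showed. The differences from control were 1.79 ± 0.194 (3.45-fold, adjusted p = 5e-09) and 1.12 ± 0.184 (2.18-fold, adjusted p = 4.86e-06). Severe retinas were lower than moderate retinas by a difference of -0.66 ± 0.193 (adjusted p = 0.00612), and without moderate replicates 2 and 9 this difference was -0.30 (adjusted p = 0.164). No or early retinas differed from control by 0.41 ± 0.159 and did not pass the test (adjusted p = 0.622). Its other probe sets never reached the filter in the retina.

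Lifr, the LIF receptor, moved in opposite directions in the tissues and by small amounts. Control ONH had 9.92 to 10.34 (median 10.16, n = 10) and moderate ONH 9.49 to 9.94 (median 9.74, n = 9), with 8 of 9 moderate ONH below every control. The difference was -0.41 ± 0.0767 (adjusted p = 6.93e-05). Severe ONH had 9.71 to 10.15 (median 10.06, n = 10), which was -0.13 ± 0.075 from control (adjusted p = 0.213) and above moderate ONH by 0.28 ± 0.0756 (adjusted p = 0.0188; 0.0552 at most when a mouse was left out, a call lost without the mouse of moderate replicate 1 or 4). No or early ONH were below preglaucoma ONH (-0.28 ± 0.0646, adjusted p = 0.00158) and above moderate ONH (moderate minus no or early -0.21 ± 0.0659, adjusted p = 0.0367, a call lost without any 1 of 7 mice).

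In the retina, Lifr was slightly higher in moderate retinas (10.35 to 10.68, median 10.50, n = 8) and severe retinas (10.43 to 10.63, median 10.50, n = 10) than in control retinas (10.24 to 10.52, median 10.38, n = 10), with wide overlap. The differences were 0.13 ± 0.0446 (adjusted p = 0.0462) and 0.13 ± 0.0421 (adjusted p = 0.0145). The first call was lost without any 1 of 11 mice, and the second without either of 2 control mice (adjusted p up to 0.0748). Both were lost with the range of the mouse number as a factor (0.06 and 0.07, adjusted p = 0.492 and 0.265). The other Lifr probe sets were at or below the filter on most arrays and called no change between moderate and control eyes in either tissue (adjusted p from 0.332 to 0.883).

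Il6st, which encodes the shared subunit gp130, rose in moderate retinas. They stood at 9.24, 9.46, 9.51, 9.54, 9.73, 9.77, 10.29 and 10.35, against 9.02 to 9.44 in control retinas (median 9.19, n = 10), so that 7 of 8 were above every control. The difference was 0.55 ± 0.0857 (1.46-fold, adjusted p = 1.02e-05) and 0.35 (adjusted p = 5.68e-05) without replicates 2 and 9, which held the top values. Severe retinas had 9.20 to 9.44 (median 9.35, n = 10), with 1 of 10 above every control, and differed from control by 0.15 ± 0.081 (adjusted p = 0.163) and from moderate by -0.40 ± 0.0851 (adjusted p = 0.000305). In the ONH the severe eyes (10.62 to 11.17, median 10.90, n = 10) exceeded control eyes (10.21 to 11.02, median 10.52, n = 10) by 0.31 ± 0.0969 (adjusted p = 0.0122; 0.0552 without the mouse of control replicates 4 and 5), and the moderate eyes (10.43 to 11.12, median 10.75, n = 9) differed by 0.19 ± 0.0991 (adjusted p = 0.175).

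Cntfr, the subunit that binds ciliary neurotrophic factor, fell in the ONH. Its levels were 5.99 to 6.67 in control ONH (median 6.19, n = 10), 5.58 to 6.23 (median 5.85) and 5.30 to 6.16 (median 5.84) in no or early sets 1 and 2, 5.14 to 6.02 in moderate ONH (median 5.52, n = 9) and 5.34 to 6.46 in severe ONH (median 5.62, n = 10). Of these, 16 of 21 no or early, 8 of 9 moderate and 9 of 10 severe ONH lay below every control. The differences were -0.43 ± 0.11 (adjusted p = 0.0175), -0.71 ± 0.131 (adjusted p = 5.4e-05) and -0.58 ± 0.128 (adjusted p = 0.0004). Of the 8 measured members, Cntfr was the 1 called between no or early and control ONH, where 2.86% of all genes were called, and the adjusted p there reached 0.0588 when the mouse of control replicates 4 and 5 or that of replicate 9 was left out. The severe eye at 6.46 was the replicate with the lowest photoreceptor marker mean.

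In the retina Cntfr was not called against control. Levels were 5.14 to 6.01 in control (median 5.44, n = 10), 4.99 to 5.74 in moderate (median 5.56, n = 8) and 5.17 to 5.50 in severe retinas (median 5.38, n = 10). The differences from control, -0.03 ± 0.101 and -0.11 ± 0.0955, did not pass the test (adjusted p = 0.865 and 0.382). Its second probe set did not reach the filter on any array.

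**Figure D3:**
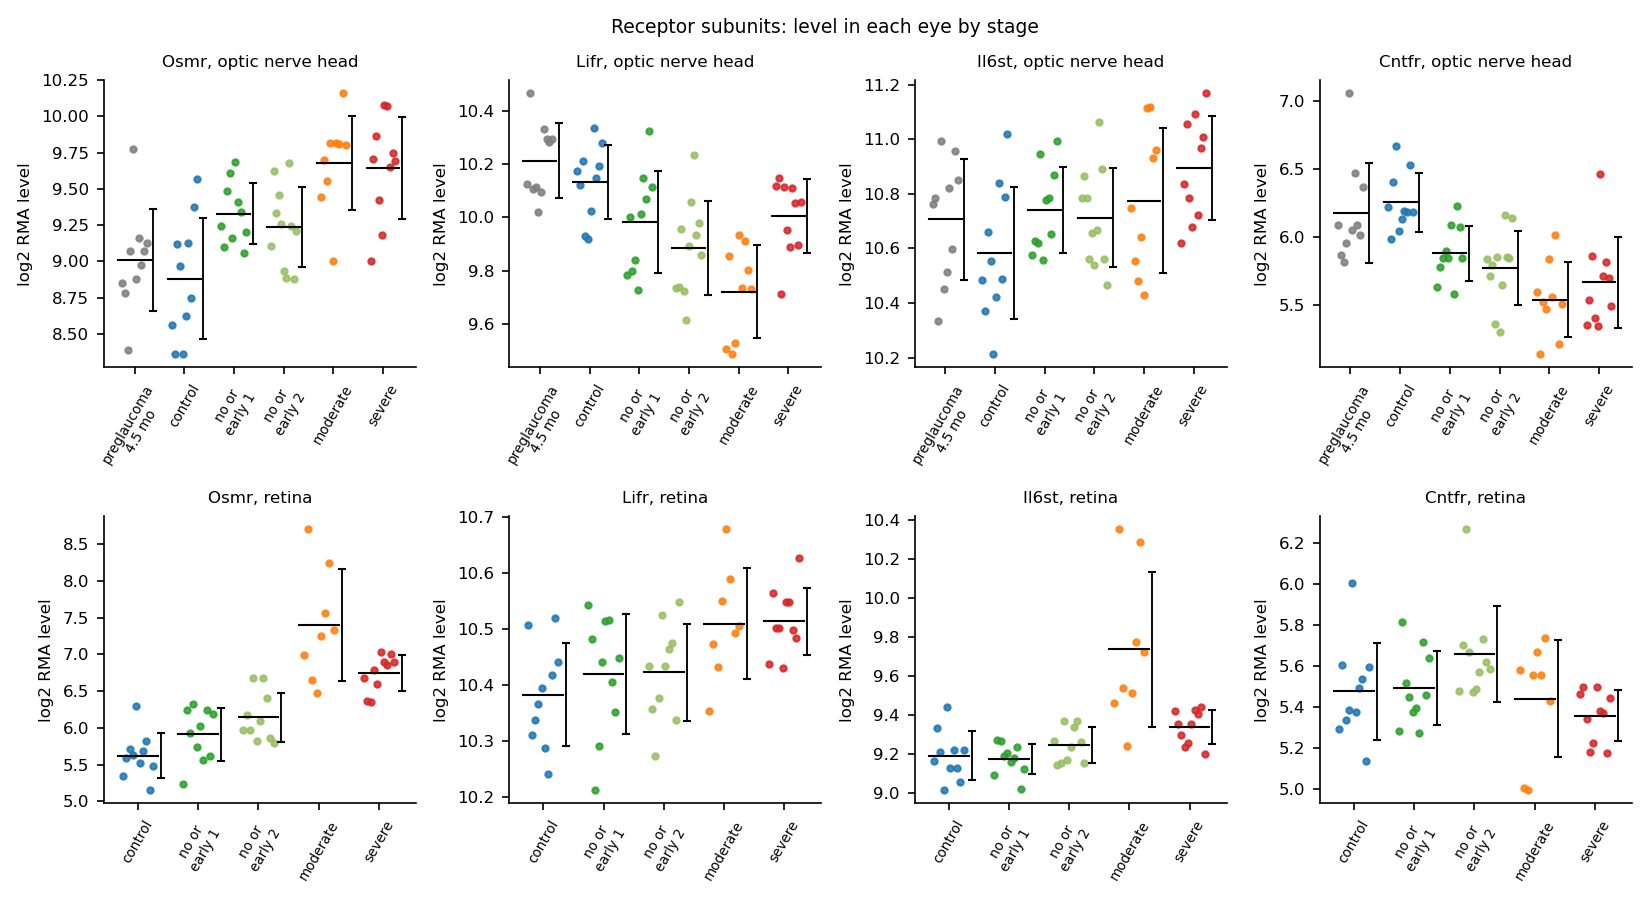
Level of the receptor genes Osmr, Lifr, Il6st and Cntfr (log2 RMA signal, y axis, scaled per panel) in each eye by stage (x axis), ONH in the upper row and retina in the lower; points are eyes, black lines group means and bars the SD. Osmr is raised in moderate and severe eyes of both tissues, Lifr and Cntfr are lower in moderate ONH, and Il6st in the retina is highest in moderate eyes.

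Stat3, the transcription factor that carries the signal to the nucleus, rose in both tissues. Control ONH had 6.78 to 7.89 (median 7.09, n = 10), moderate ONH 7.34 to 8.07 (median 7.86, n = 9) and severe ONH 7.32 to 8.42 (median 8.03, n = 10), with 4 of 9 and 6 of 10 eyes above every control. The differences from control were 0.54 ± 0.159 (adjusted p = 0.0101) and 0.69 ± 0.155 (adjusted p = 0.000531), and with the range of the mouse number as a factor the first was 0.37 (adjusted p = 0.196). Preglaucoma ONH were lowest (6.17 to 7.23, median 6.85, n = 10): they differed from control by -0.49 ± 0.157 (adjusted p = 0.0486, lost without any 1 of 27 mice), and no or early ONH exceeded them by 0.66 ± 0.134 (adjusted p = 0.000409). Its next probe sets by mean level gave 0.70 and 0.82 for moderate minus control ONH (adjusted p = 5.92e-05 and 2.96e-05). For preglaucoma minus control they gave -0.07 and 0.08 (adjusted p = 0.807 and 0.802), and for no or early minus preglaucoma 0.28 and 0.23 (adjusted p = 0.0748 and 0.211), so neither of those calls held on them.

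The 8 moderate retinas had Stat3 levels of 7.36, 7.61, 7.67, 7.75, 7.93, 8.01, 8.32 and 8.49, all above the control range of 6.65 to 7.16 (median 6.91, n = 10), a separation that 1.38% of the genes tested showed. Severe retinas had 6.96 to 7.75 (median 7.36, n = 10), with 8 of 10 above every control. The differences from control were 0.99 ± 0.118 (1.99-fold, adjusted p = 3.9e-08) and 0.49 ± 0.112 (1.41-fold, adjusted p = 0.000624). Severe retinas were below moderate retinas by a difference of -0.50 ± 0.117 (adjusted p = 0.000886).

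Socs3, the feedback inhibitor whose promoter holds the motif shown above, rose in moderate eyes of both tissues. Control ONH had 7.41 to 9.64 (median 8.39, n = 10), moderate ONH 8.71 to 10.26 (median 9.35, n = 9) and severe ONH 7.97 to 9.82 (median 9.13, n = 10). The ranges overlapped, with 2 of 9 moderate ONH above every control. The differences were 1.04 ± 0.277 (2.06-fold, adjusted p = 0.00454) and 0.76 ± 0.271 (adjusted p = 0.0308, lost without any 1 of 9 mice, and 0.72 with adjusted p = 0.0552 without the punch of lowest photoreceptor marker mean). With the microglia covariate they were 0.47 and 0.24 (adjusted p = 0.268 and 0.619).

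In the retina Socs3 varied most within the moderate group. Its eyes stood at 5.24, 5.56, 6.48, 6.96, 6.98, 6.99, 8.89 and 9.26, against 4.61 to 5.74 in control retinas (median 5.18, n = 10) and 5.37 to 6.44 in severe retinas (median 5.89, n = 10). The lowest moderate retinas lay inside the control range, and 6 of 8 lay above it. Of the control retinas 6 of 10 reached the filter of 5, so the fold given next rests partly on values under it. The second Socs3 probe set reached the filter on 21 of 48 retina arrays, and the probe set of lowest mean reached it on none. The moderate difference was 1.86 ± 0.365 (3.62-fold, adjusted p = 0.00031), or 1.18 (adjusted p = 0.0137) without replicates 2 and 9. The severe difference, 0.70 ± 0.345, did not pass the test (adjusted p = 0.116) although 7 of 10 severe retinas were above every control, and without those 2 moderate retinas it did (adjusted p = 0.0366). Severe minus moderate was -1.16 ± 0.362 (adjusted p = 0.0105) and -0.47 (adjusted p = 0.253) without them, and leaving out the mouse of replicate 2 alone raised the adjusted p to 0.0781.

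Cebpd, a transcription factor gene of the C/EBP family that is induced early after STAT3 activation, had the largest difference of the measured genes in moderate against control retina. Its moderate retinas stood at 5.71, 6.18, 6.43, 6.46, 6.52, 6.57, 8.30 and 9.05, against 4.06 to 5.07 in control retinas (median 4.56, n = 10), 4.19 to 5.34 and 4.63 to 5.51 in no or early sets 1 and 2, and 5.14 to 6.18 in severe retinas (median 5.53, n = 10). All moderate retinas were above all control and all no or early retinas, separations that 1.38% and 0.212% of the genes tested showed, and all severe retinas were above all controls, as for 7.29% of the genes. The differences from control were 2.33 ± 0.254 (adjusted p = 5e-09) and 1.01 ± 0.241 (adjusted p = 0.0011). Only 1 of 10 control retinas reached the filter of 5, so no fold is given. Severe minus moderate was -1.33 ± 0.253 (adjusted p = 7.03e-05).

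Cebpd in the ONH was 6.72 to 8.42 in control eyes (median 7.44, n = 10), 7.99 to 9.22 in moderate eyes (median 8.63, n = 9) and 7.41 to 9.24 in severe eyes (median 8.23, n = 10). Of the moderate eyes 7 of 9 were above every control. The moderate difference was 1.08 ± 0.278 (2.11-fold, adjusted p = 0.0034), and 0.51 (adjusted p = 0.218) with the microglia covariate. The severe difference, 0.68 ± 0.272, did not pass the test (adjusted p = 0.0594). It passed without the mouse of low Xist (0.84, adjusted p = 0.0213) and without the mouse of control replicate 10, of severe replicate 8 or of preglaucoma replicates 5 and 6. The other Cebpd probe set gave differences of 1.14 (ONH, adjusted p = 0.000659) and 1.93 (retina, adjusted p = 1.38e-09) for moderate minus control.

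**Figure D4:**
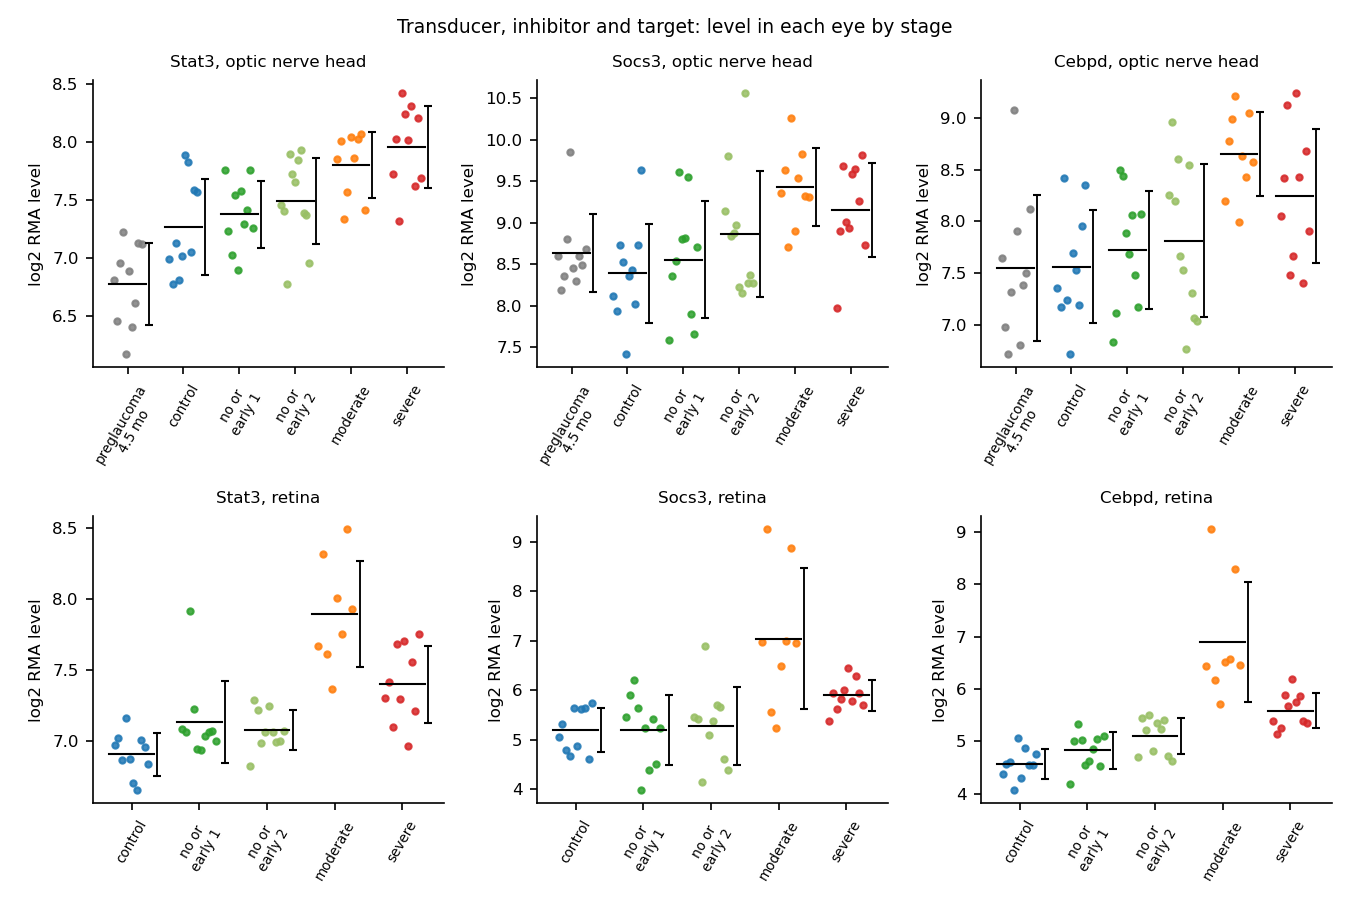
Level of Stat3, Socs3 and Cebpd (log2 RMA signal, y axis, scaled per panel) in each eye by stage (x axis), ONH in the upper row and retina in the lower; points are eyes, black lines group means and bars the SD. In the retina the moderate group holds the highest eyes of each gene, 2 of them at 8.89 and 9.26 for Socs3 and at 8.30 and 9.05 for Cebpd.

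Few differences were called between no or early eyes and controls. In the ONH Cntfr alone of the 8 members passed the test, and in the retina none of the 7 tested genes did, where 0.0442% of all genes were called (limma, 5 genes). Osmr (0.40 ± 0.127) and Lifr (-0.20 ± 0.0646) in the ONH lay just short of the threshold (adjusted p = 0.0746 each). The no or early sets did not differ in any of the measured genes in either tissue (adjusted p of at least 0.791), and no gene of the array passed the test there. Against the younger preglaucoma ONH, no or early ONH had higher Lif and Stat3 and lower Lifr and Cntfr, 4 of 8 genes where 14.6% of all genes were called. The Cntfr call (-0.35, adjusted p = 0.0228) was lost without either of 2 preglaucoma mice (adjusted p up to 0.114) and turned to 0.0099 (adjusted p = 0.937) with the mean of its probe sets, of which the second never reached the filter. Preglaucoma against control ONH called Stat3 alone of 8 genes (6.08% of all genes called). Moderate against no or early ONH called Osmr, Socs3 and Cebpd as higher and Lifr as lower, 4 of the 7 genes other than Lif (7.47% of all genes called). The Socs3 call there (0.73, adjusted p = 0.047) was lost without any 1 of 24 mice (adjusted p up to 0.115), and its second probe set gave an adjusted p of 0.0517. Stat3 did not pass in that comparison, while its next probe sets did (0.49 and 0.51, adjusted p = 0.00246 and 0.00464). Moderate against no or early retina called Il6st, Osmr, Stat3, Socs3 and Cebpd, all higher (15.2%). Severe against no or early ONH called Osmr and Stat3, both higher (13.2%), though the next Stat3 probe sets did not pass there (0.28 and 0.31, adjusted p = 0.0836 and 0.0786). Severe against no or early retina called Lifr, Osmr, Stat3 and Cebpd as higher and Cntfr as lower (44.1%). Of these, Lifr was lost without any 1 of 7 mice (adjusted p up to 0.0817) and Cntfr without any 1 of 3 (up to 0.118).

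Severe eyes were also set against moderate eyes. In the retina Il6st, Osmr, Stat3, Socs3 and Cebpd were lower in severe eyes, 5 of 7 genes where 38.3% of all genes were called. In the ONH Lifr, higher in severe eyes, was the 1 gene called of the 7 other than Lif (3.74% of all genes called), and the differences of Osmr (-0.03 ± 0.148), Stat3 (0.15 ± 0.157), Socs3 (-0.28 ± 0.273) and Cebpd (-0.40 ± 0.274) did not pass the test (adjusted p from 0.488 to 0.937). In the retina the mean level of the photoreceptor list was 11.03 to 11.43 in moderate and 11.40 to 11.51 in severe eyes, and with the photoreceptor and pigment epithelium list means as covariates none of the 5 genes passed (limma, adjusted p from 0.191 to 0.553). In that fit the differences were -0.50 ± 0.261 for Cebpd, -0.38 ± 0.397 for Socs3, -0.28 ± 0.146 for Stat3, -0.25 ± 0.225 for Osmr and -0.18 ± 0.0984 for Il6st, all nearer to 0 than without the covariates. With only mice of the controls' number range none passed either, and Osmr (0.042, adjusted p = 0.947) and Socs3 (0.44, adjusted p = 0.662) turned direction. That fit held 2 moderate and 3 severe eyes, some of them of the same mice. Whether the step from moderate to severe itself differs between tissues was not tested.

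For the 48 eyes with both tissues, the ONH level minus the retina level of the same eye gave a direct test of whether a stage difference was unequal in the tissues. For moderate minus control the difference was smaller in the ONH than in the retina for Osmr (-0.92 ± 0.232, adjusted p = 0.00781) and Cebpd (-1.18 ± 0.342, adjusted p = 0.0222), and it had opposite directions for Lifr (-0.56 ± 0.0877, adjusted p = 1.73e-05). Cntfr fell more in the ONH (-0.72 ± 0.154, adjusted p = 0.00159). These are 4 of the 7 genes other than Lif, where 8.2% of all genes were called, and the values for Stat3 (-0.48 ± 0.21) and Socs3 (-0.75 ± 0.46) did not pass the test (adjusted p = 0.161 and 0.353). Without moderate replicates 2 and 9, Osmr and Cebpd did not pass either (-0.58 and -0.61, adjusted p = 0.0864 and 0.228). With the mean of its probe sets the Osmr value was 0.0076 (adjusted p = 0.989), in the other direction. That mean includes probe sets that reached the filter on 38 and 28 ONH arrays but on no retina array. Lif, chosen for its level in moderate ONH, had an effect 1.99 ± 0.343 larger in the ONH. Its retina effect, 0.73, comes from a signal that reached the filter on 1 of 48 retina arrays. The moderate ONH of lowest Lif had no retina array. In the paired eyes the ONH effect by group means was 2.73, against a fitted 2.44 over all ONH arrays. For severe minus control, Lifr (-0.26 ± 0.0831, adjusted p = 0.0214) and Cntfr (-0.47 ± 0.146, adjusted p = 0.017) differed between tissues (19.4% of all genes called), and for no or early minus control Cntfr did (-0.54 ± 0.127, adjusted p = 0.0165, 1.19%). For moderate minus no or early, Lifr, Il6st and Osmr differed (2.43% of all genes called), and for severe minus no or early none of the 8 genes did (limma, adjusted p from 0.225 to 0.984, 13.5% of all genes called).

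In 2 mice the left eye was moderate and the right eye severe. In the first, the moderate retina (replicate 2) had a Cebpd level of 9.05 against 5.38 in its severe fellow retina, a Socs3 level of 9.26 against 5.37 and an Osmr level of 8.71 against 6.68. Its ONH had a Lif level of 7.44 against 5.32 on the severe side. In the second, the moderate retina had a Cebpd level of 6.18 against 5.26 and a Socs3 level of 5.56 against 5.62, and the Lif levels of its ONH were 6.93 and 6.52. Socs3 in the ONH was 9.64 on the moderate and 7.97 on the severe side of the first mouse, and 8.71 and 9.68 in the second. With 1 pair of eyes each, these values carry no test.

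Microglia and macrophage markers also rose in moderate and severe eyes of both tissues. In the retina the mean level of this list (13 genes) was 4.03 to 4.26 in control, 4.34 to 6.32 in moderate and 4.43 to 4.87 in severe eyes, and 4 of its 5 tested members rose in moderate eyes. Moderate replicate 2 had the highest list mean, 6.32, followed by replicate 8 at 5.65 and replicate 9 at 5.38. In the ONH the list mean was 6.42 to 7.52 in control, 6.70 to 8.16 in moderate and 7.19 to 8.06 in severe eyes, and 9 of 12 tested members rose in moderate eyes. Earlier groups were already higher than control there, with 4 of 12 members called in no or early and 3 in preglaucoma ONH. Their list means were 7.53 and 7.44, against 7.02 in control and 7.64 in moderate ONH. Moderate against no or early ONH called 1 of 12, and severe against moderate ONH called 0. With the list mean as a covariate, the differences for moderate minus control retina were 1.03 for Cebpd, 0.83 for Osmr and 0.70 for Stat3 (adjusted p = 0.0274 each), and 0.09 for Socs3 and 0.12 for Il6st (adjusted p = 0.945 and 0.539). The list means of moderate and control retinas did not overlap, so these differences are extrapolated to list means that the groups did not share. In moderate ONH that fit gave 1.73 for Lif and 0.43 for Osmr (adjusted p = 0.0272 for Osmr). Neutrophil and monocyte markers also rose in moderate ONH (3 of 4 tested members, list mean 3.88 to 5.41 against 3.76 to 4.34 in control), while in the retina none of their 8 genes on the array could be tested and 7 never reached the filter. In the ONH 4 of the 8 never reached it either, and the list mean there includes them. Of the 4 tested in the ONH, 2 were already higher in no or early eyes. Other cell lists moved too. In moderate ONH all 8 melanocyte genes fell (list mean 5.54 to 6.5 against 7.88 to 9.05 in control). All 8 also fell in no or early ONH (median -2.10, against -2.11 in moderate ONH), and 0 of 8 were called between these stages. In moderate ONH 6 of 9 Müller glia genes fell (1 rose), as did 3 of 8 astrocyte genes (1 rose), 4 of 8 bipolar and amacrine cell genes and 5 of 9 retinal ganglion cell genes. Of all genes tested, 9.68% rose and 11.9% fell in moderate ONH. In moderate retina 4 of 9 Müller glia and 3 of 7 astrocyte genes rose and 7 of 9 retinal ganglion cell genes fell. Of all genes tested there, 7.08% rose and 15.5% were called in either direction. The part of the microglia list, of the neutrophil list and of these lists in the members' differences was not tested.

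**Figure D5:**
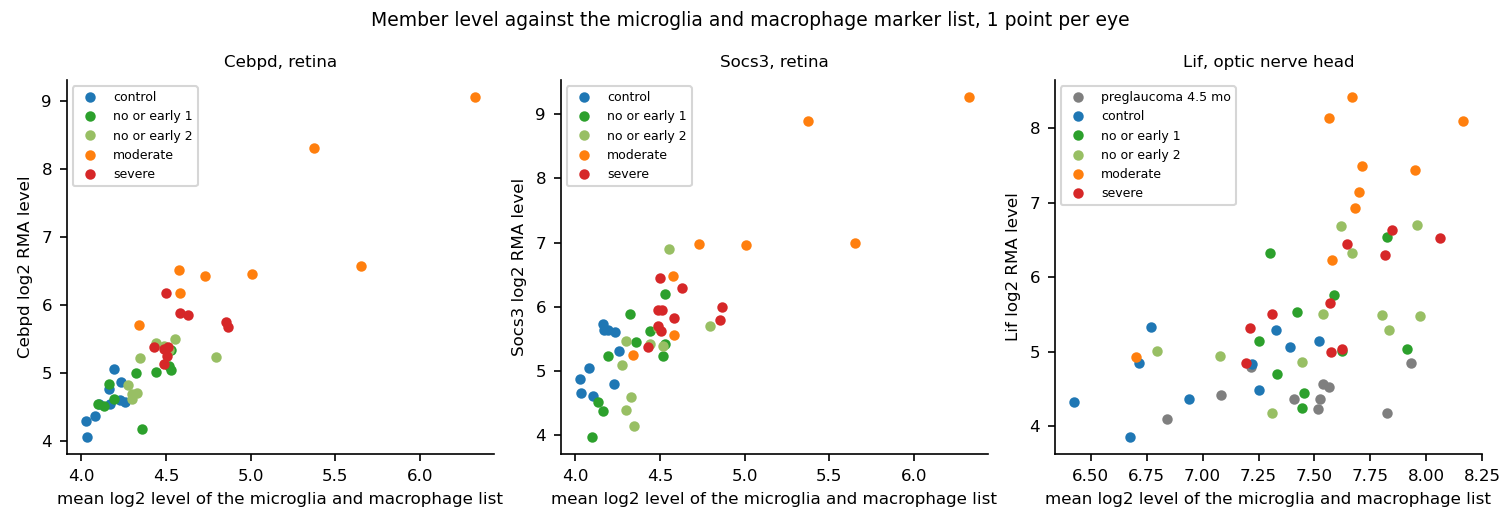
Level of Cebpd and Socs3 in the retina and of Lif in the ONH (log2 RMA signal, y axis) against the mean log2 level of the microglia and macrophage list (x axis), 1 point per eye, coloured by stage. In the retina the moderate eyes spread over list means from 4.34 to 6.32, and the eyes with the highest Cebpd and Socs3 are moderate replicates 2 and 9.

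The other genes of the pathway were taken from 6 lists of 73 genes, chosen with earlier results of these arrays known. Of the 63 tested in the ONH, 24 rose and 3 fell in moderate against control eyes and 21 rose and 2 fell in severe eyes (medians 0.33 and 0.23, all genes 0.01 and 0.00). Of all genes, 9.68% rose and 11.9% fell in moderate ONH and 10.7% rose and 13.5% fell in severe ONH. Of the 45 tested in the retina, 24 rose and none fell in moderate eyes and 15 rose and 2 fell in severe eyes (medians 0.29 and 0.12, all genes -0.01 and -0.02), where 7.08% and 13.8% of all genes rose. The counts of each list below stand beside these shares. No or early ONH had 8 higher and no or early retinas none, where 2.86% and 0.0442% of all genes were called in either direction.

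Among the other ligands, 3 of 6 tested rose in moderate ONH and none of 2 in moderate retina. Il11, which signals through gp130 as LIF does, rose by 1.50 ± 0.296 (adjusted p = 0.00016), Clcf1, a ligand of the CNTF receptor, by 0.80 ± 0.168 (adjusted p = 0.000385) and Ebi3, a subunit of interleukin 27, by 0.58 ± 0.114. In severe minus moderate ONH, Il11 fell by 1.25 ± 0.291 (adjusted p = 0.0048) and Clcf1 fell by 0.58 ± 0.166 (adjusted p = 0.03), which like Lif were highest in moderate eyes. Both of the other receptors tested in the ONH, Il27ra and Il6ra, rose in severe eyes (0.66 ± 0.237 and 0.50 ± 0.186).

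Of the kinases and partner factors, 1 of 9 rose and 1 fell in moderate and in severe ONH, 3 of 8 rose in moderate retina, and 1 was higher and 3 were lower in severe than in moderate retina, where 38.3% of all genes were called. Irf9, a transcription factor gene of the interferon regulatory factor family, rose in moderate ONH (0.72 ± 0.153) and severe ONH (0.78 ± 0.149) and in moderate retina (0.89 ± 0.167), and Stat5b fell in moderate and severe ONH (-0.33 ± 0.103 and -0.32 ± 0.101). Jak2, a kinase bound to these receptors, rose by 0.14 ± 0.048 in moderate retina. Of the other inhibitors, none of 8 passed the test in moderate ONH, the phosphatase Ptpn6 rose in severe ONH (0.56 ± 0.128), and the phosphatases Ptpn1 and Ptpn2 rose in moderate retina (0.29 ± 0.1 and 0.22 ± 0.063).

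Early response genes rose in moderate retina for 10 of 12 tested and in moderate ONH for 4 of 15. The largest rises in the retina were those of the stress transcription factor Atf3 (1.52 ± 0.187, adjusted p = 7.6e-08), the RNA-binding protein gene Zfp36 (0.83 ± 0.193), Irf1 (0.76 ± 0.109) and Fosl2 (0.70 ± 0.119). In the ONH they were Bcl3 (1.27 ± 0.239, adjusted p = 8.2e-05), Myc (1.20 ± 0.278), Ier3 (0.65 ± 0.174) and Pim1 (0.47 ± 0.165), and Pim3 fell. In severe against moderate retina 7 of 12 were lower and none higher, where 38.3% of all genes were called in either direction, with Atf3 at -1.17 ± 0.186.

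Glial and acute phase targets gave the largest differences. In moderate ONH 16 of 23 rose and 1 fell, led by the iron-binding lipocalin Lcn2 (3.84 ± 0.603), the endothelin Edn2 (3.76 ± 0.519), the metalloproteinase inhibitor Timp1 (3.70 ± 0.357) and Saa3 (2.32 ± 0.427). In severe ONH 13 rose and 1 fell. In moderate retina 9 of 15 rose, led by the astrocyte filament gene Gfap (3.41 ± 0.29), Edn2 (2.99 ± 0.283), Lcn2 (2.75 ± 0.362) and the protease inhibitor Serpina3n (2.30 ± 0.232), and in severe retina 11 rose. In severe minus moderate retina Gfap fell by 1.82 ± 0.288 and Edn2 by 1.23 ± 0.281, while the Lcn2 differences from control were 2.75 in moderate and 2.86 in severe retinas.

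The genes most like the members over arrays were ranked by Pearson's r of levels, as a description of arrays that share stage groups and, for 10 mice in the ONH, a mouse. Over the 60 ONH arrays Lif was most like Tnfrsf12a, Spidr, Vmp1, Tcim and Ccl2 (r from 0.86 to 0.87). Among 12099 other genes Cebpd ranked 36 (r = 0.78), Osmr 47 (0.77) and Socs3 138 (0.70), while Lifr ran opposite (r = -0.60, rank 11956). With the group means taken out, Cebpd, Osmr and Socs3 still had r of 0.71, 0.70 and 0.63 with Lif, and Stat3 had -0.10. ONH Socs3 was most like Tubb6, Cd14, Cebpd, Bcl3 and Plekhf1 (r from 0.78 to 0.82), and ONH Cebpd most like Tnfrsf12a, Tubb6, Maff, Spidr and Pvr (r from 0.82 to 0.84).

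Over the 48 retina arrays Cebpd was most like Vim and Gfap (r = 0.95 each), the filament genes of reactive Müller glia and astrocytes, then Lrrc2, Osmr and Edn2 (r from 0.93 to 0.94). Among 11321 other genes Il6st ranked 14 (r = 0.91), Socs3 40 (0.88) and Stat3 83 (0.85), while Lifr and Cntfr had r of 0.27 and -0.08. Retinal Socs3 was most like Glipr2, Sec22c, Mlf1, Spsb1 and Pbxip1 (r from 0.88 to 0.90). With the group means taken out, Cebpd had r of 0.84 with Osmr, 0.82 with Il6st, 0.79 with Socs3 and 0.58 with Stat3.

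All control mice have numbers of the same range, a range that in each tissue also holds 2 moderate, 3 severe and 4 no or early eyes of DBA/2J mice, so the controls were set beside mice of that range alone. These few eyes share mice. The severe eyes include both eyes of the mouse of low Xist, and the other severe eye is the fellow of a moderate eye. The no or early eyes include both eyes of another mouse. Lif (2.77), Lifr (-0.62, adjusted p = 0.012) and Cntfr (-0.76, adjusted p = 0.0305) kept their direction in moderate ONH, and Osmr, Socs3, Stat3 and Cebpd did not pass the test (0.79, 1.09, 0.20 and 1.53, adjusted p from 0.076 to 0.803). In the retina Cebpd (1.34, adjusted p = 0.00132), Osmr (0.92, adjusted p = 0.0302) and Stat3 (0.57, adjusted p = 0.0392) passed, and Il6st (0.20) and Socs3 (0.20) did not (adjusted p = 0.294 and 0.845). In severe ONH of that range Cntfr alone passed (-0.72, adjusted p = 0.00383), and Lif, Il6st, Osmr, Stat3 and Socs3 did not (0.71, 0.26, 0.61, 0.73 and 0.83, adjusted p from 0.0956 to 0.281). In severe retinas Cebpd, Osmr and Stat3 passed (1.06, 0.96 and 0.47). The labels do not say whether the number stands for a cohort.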

How the data were processed

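All arrays were of 1 Affymetrix mouse genome design. Per the labels' protocols, biotin-labelled cDNA was made with the NuGEN Ovation kit, and per the submitters' processing notes GCOS, RMA and the affy package were used, with no version given. The values are the log2 signals the authors deposited and were not normalized again, except in an alternative. The 2 deposited clustering tables hold part of the same log2 values and were used to compare values only. Of 45101 probe sets, 34958 carried 1 gene, 932 several and 9211 none, 34754 were matched to current symbols by Entrez number, and the probe set of highest mean in the tissue stood for a gene. Genes reaching log2 5 on at least 8 arrays were tested with limma 3.58.1 in R 4.3.3 (lmFit and eBayes, two-sided, Benjamini-Hochberg over all genes of a comparison): 12100 in the ONH, 11322 in retina and 12616 for ONH minus retina of an eye. All groups of a tissue entered 1 fit, no or early was the equal-weight mean of its sets, and the mouse was a random block (correlation 0.0774, 0.0366 and 0.0879), the mouse being read from the number in the labels. The fit was tested on simulated data. Members and gene lists were chosen with earlier results of these data known. All members were to be named, with up to 4 changed genes of each pathway list by size and the 5 genes most alike Lif, Socs3 and Cebpd. Alternatives were the filter, the probe sets, the normalization, array weights, the blocks, the groups in the fit, each mouse left out, cell type covariates and the range of the mouse number. Array precision is limited by the number of eyes.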

Additional observations from a re-analysis of the deposited data

Results flagged for a closer look

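Of 80 groups of arrays examined gene by gene, 5 held an eye far from the others, and chance alone gives about 1 in 20 such groups. Cntfr in severe ONH replicate 6 was 6.46 with the next eye at 5.86, in preglaucoma ONH replicate 5 it was 7.06 with the next at 6.47, and in retina replicate 3 of no or early set 2 it was 6.27 with the next at 5.73. Socs3 in preglaucoma ONH replicate 5, the same eye, was 9.85 with the next at 8.80. Stat3 in retina replicate 3 of no or early set 1 was 7.92 with the next at 7.23.

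Stage effects that were unequal in the ONH and the retina of the same eyes were found for 12 of 40 tested (limma, adjusted p under 0.05), or 10 of 35 without Lif, whose values are a description because Lif was chosen for its level in moderate ONH. Retinal Lif also lay under the filter on all but 1 array, and the moderate ONH of lowest Lif had no retina array. For moderate minus control, the ONH effect minus the retina effect was 1.99 for Lif, -0.56 for Lifr, -0.92 for Osmr, -0.72 for Cntfr and -1.18 for Cebpd (8.2% of all genes called). For moderate minus no or early it was 1.40 for Lif, -0.33 for Lifr, -0.45 for Il6st and -0.90 for Osmr (2.43%). For severe minus control it was -0.26 for Lifr and -0.47 for Cntfr, with 19.4% of all genes called, and for no or early minus control it was -0.54 for Cntfr, with 1.19%. For severe minus no or early, where 13.5% were called, no member was. Without the moderate retinas of replicates 2 and 9, 4 of these did not pass: Osmr (-0.58) and Cebpd (-0.61) for moderate minus control, and Osmr (-0.59) and Il6st (-0.22) for moderate minus no or early.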

How the results depend on the processing

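Over the alternatives, 1682 member values kept their side of the threshold, 116 fell short of it, 41 newly passed and 7 reversed. Reversed values changed direction and were called in the main fit or the alternative. A change of direction of a value called in neither fit counts among those that kept their side. Counts of members called are given where they moved by over 1.5 times. Those for moderate ONH include Lif, chosen on that level, as a description. Without Lif they are 6, 4 and 1 for moderate minus control, moderate minus no or early and severe minus moderate. In the ONH the counts changed as follows. For no or early minus control (1 member) the count was 3 with the replicate block and 3 with array weights, 2 with only the groups compared, with photoreceptor and pigment epithelium covariates or with the number range as a factor, and 0 in the controls' number range. For moderate minus control (7) it was 3 in the controls' range. For severe minus control (6) it was 3 with the microglia covariate and 1 in the controls' range. For moderate minus no or early (5) it was 3 with no filter, with the mean of probe sets or with only the groups compared, 1 with the number range and 0 in the controls' range. For severe minus moderate (2) it was 1 with the mean of probe sets and 0 with only the groups compared or in the controls' range. In the retina, no or early minus control (0) gave 1 with array weights and 1 in the controls' range. Moderate minus control (6) gave 3 with the microglia covariate and 3 in the controls' range, and moderate minus no or early (5) gave 3 and 0. Severe minus moderate (5) gave 3 with the mean of probe sets, the microglia covariate or without moderate replicates 2 and 9, and 0 with the photoreceptor covariates or in the controls' range. Unequal tissue effects for moderate minus control (5) gave 3 with the mean of probe sets or without those replicates, and for moderate minus no or early gave 2 without them. Severe minus no or early gave 1 in the ONH with the number range as a factor and 0 in the controls' range in both tissues, and preglaucoma minus control gave 0 with the microglia covariate. In the controls' range alone, reversed values were Socs3 (-0.46) and Stat3 (-0.069) in moderate minus no or early retina, Stat3 (-0.16) in severe minus no or early retina, and Osmr (0.042) and Socs3 (0.44) in severe minus moderate retina. That range holds few DBA/2J eyes, some of them of the same mice. The mean of probe sets reversed Cntfr in no or early minus preglaucoma ONH (0.0099) and the Osmr tissue difference for moderate minus control (0.0076). Both means include probe sets that never reached the filter, for Osmr in the retina only. The causes were not tested. Leaving out each of 50 mice gave 1 to 2, 7 to 7, 4 to 7, 2 to 5 and 1 to 2 members called in the ONH, in the order above, and each of 41 mice gave 0 to 0, 5 to 6, 5 to 6 and 4 to 5 in the retina and 3 to 4 for severe minus control retina. The microglia covariate and the fits without moderate replicates 2 and 9 or without the punch of low photoreceptor level were chosen after seeing the data. Replicate numbers share no stated meaning and were not taken to pair the arrays, since r of same-numbered arrays went down to -0.557 in the ONH and -0.545 in the retina. The ONH arrays give a hint of shared numbers (mean r 0.0973 over 145 same-numbered pairs and -0.00896 over 1354 others, 18 of 60 arrays closest to their own number), the retina none (-0.0221 and 0.005, 9 of 48).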
